A study of Coturnix japonica with 19 samples.

Results

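The make-up of the pituitary transcriptome was described in the adult male Japanese quail (Coturnix japonica) of the series, that is in 10 of its 19 libraries, with 1 library for each bird. The libraries were taken by their labels, 5 from adults under a long photoperiod of 16 h of light and 8 h of darkness (16L) and 5 from adults under a short photoperiod of 8 h of light and 16 h of darkness (8L). By the methods of the study all birds came at 5 weeks of age and spent 2 weeks under long days. All then had 8 weeks of short days, after which the 8L birds were taken, while the 16L birds went on to 8 weeks of long days. The 16L birds were therefore older at collection, and light history, age and photoperiod cannot be told apart. No test between the photoperiods was made. The counts were asked which genes take up the transcriptome of the gland, how much of it hormones and the secretory pathway hold, and how far birds of 1 photoperiod differ from one another. Each library is a bulk sample, in which fewer cells of a type and less RNA per cell cannot be told apart.

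The pituitary is a gland of several secretory cell types, each known by its hormone. Corticotrophs make proopiomelanocortin (POMC), the precursor of corticotropin, lactotrophs make prolactin (PRL) and somatotrophs make growth hormone (GH). Gonadotrophs and thyrotrophs share the alpha subunit CGA, which pairs with the beta subunits of luteinizing hormone, of follicle-stimulating hormone (FSHB) or of thyrotropin (TSHB). These hormones are packed with granins into dense-core granules and released on signals from the hypothalamus, and POMC is cut into its peptides by prohormone convertases.

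The deposited values are estimated reads for each transcript, and the 63260 transcripts carry 19562 gene symbols, of which 13569 are named genes, with symbols that do not start with LOC. Adult libraries held from 128509 to 4796665 summed counts (median 1205593), and from 5994 to 12382 named genes had a count. Thinned to the 128509 counts of the smallest library, the adults ranged from 5989 to 8220 named genes. HINTW, a W-linked gene that only female birds carry, had 0 counts in all 10 libraries. Library 8L replicate 2 was the smallest and stood apart. Across the 500 named genes of highest median share its log2 levels had a median r of 0.52 with the other 9 libraries, whereas the others had medians from 0.71 to 0.86. In this library 1 count stood for 5.67 CPM, the counts per 1000000 of a library total scaled by its normalization factor, against 0.240 in the deepest.

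Transcripts of 1 gene often held the same number. OSBPL6, a sterol-binding protein, has 19 listed transcripts, and every one of them stood at 7 counts in 8L replicate 2. In the same library 577 genes with at least 2 transcripts had exactly 1 count on each of them, and such genes numbered from 250 to 577 over the adult libraries. The values were not simply rounded, as 3530 adult values carried a fraction and 99.4% were whole within 1e-08. Summed counts were higher for genes with more listed transcripts. Named genes with 1 listed transcript had a median of 2.76 and those with 33 to 64 transcripts a median of 621, per 1000000 counts of the library. When only the most counted transcript of each gene was kept, those medians were 10.6 and 71.1. Whether reads were entered more than once was not tested. Values are from counts summed over the transcripts of a gene unless stated, and the main shares, orders and spreads are also given from its most counted transcript.

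**Figure D1:**
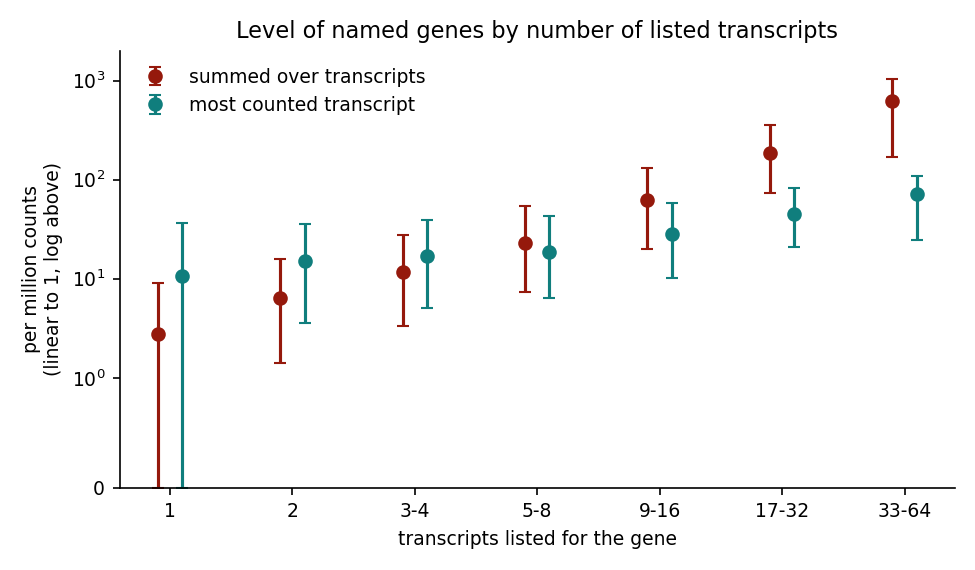
Median level of named genes over the 10 adult libraries (y axis, per 1000000 counts, linear up to 1 and logarithmic above) by the number of transcripts listed for the gene (x axis), with bars from the 25th to the 75th percentile of genes. Summed counts rise from 2.76 at 1 transcript to 621 at 33 to 64 transcripts, and the most counted transcript from 10.6 to 71.1.

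A second feature concerned 63 symbols that start with LOC. They formed 5 families of 5 to 18 genes in which each member matched another member in every library, within 5% or 2 counts. Agreement of all members with one another was not required. In adults 53 of them were counted. These copies held 13.4% to 53.9% of the summed counts of a library (median 29.7%), with the highest share in 16L replicate 2 and the lowest in 8L replicate 4. With the most counted transcript and each family counted once, they held 2.74% to 18.8% (median 6.97%). None of the LOC symbols was found in the quail annotation at hand, so these genes are not named here. They enter the denominator of every share below.

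The 4 major hormone genes POMC, PRL, CGA and GH together held 1.47% to 5.52% of summed counts, with a median of 3.08% over the 10 birds. Their share was 4.49% ± 1.34 (SD, n = 5) in 16L birds and 2.22% ± 0.83 (SD, n = 5) in 8L birds, and the ranges overlapped. Counted by the most counted transcript, with copies once, they held 3.70% to 15.2% (median 7.88%). The lowest of these values belonged to 8L replicate 2 and the highest to 16L replicate 3. The adult transcriptome was thus not one in which hormones take most of the counts. It took between 293 and 448 named genes to reach 50% of the summed counts on named genes, and between 231 and 573 by the most counted transcript. The 10 highest named genes of a library held 9.03% to 15.6% of its summed named counts, and 12.9% to 26.7% by the most counted transcript.

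**Figure D2:**
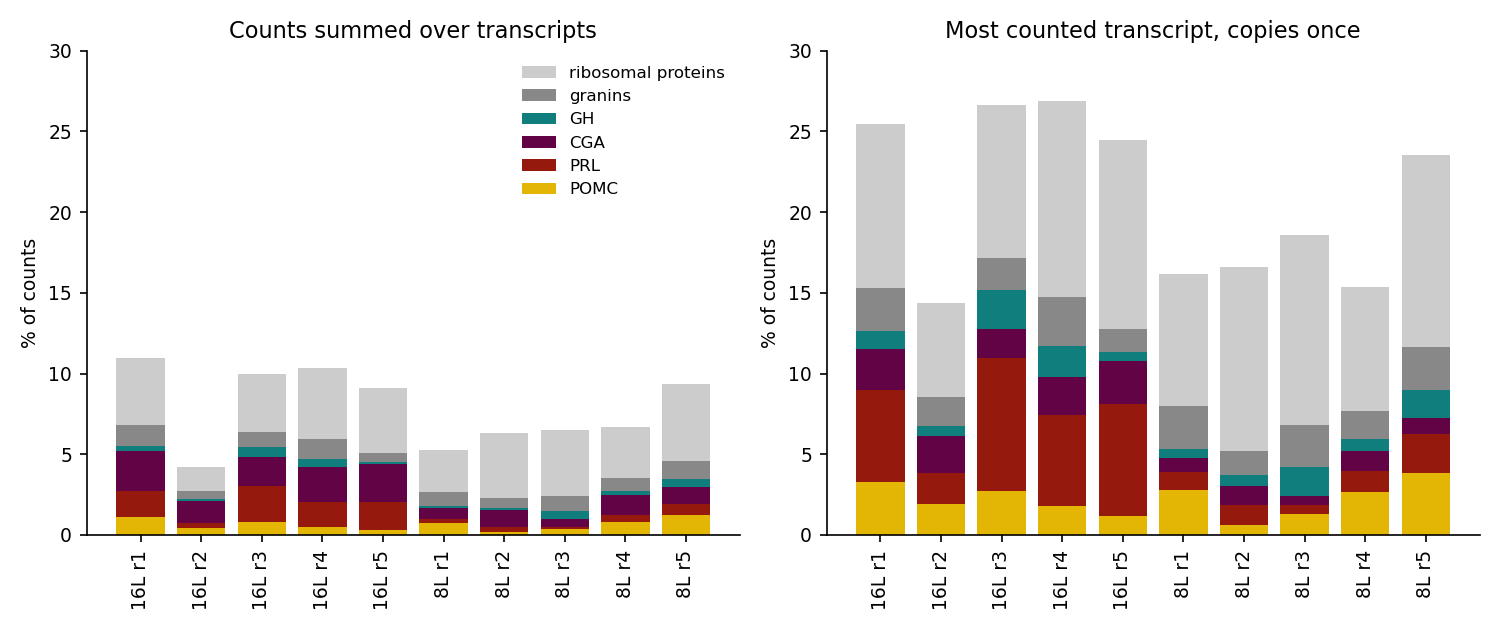
Share of counts (y axis, percent of all counts of a library) held by POMC, PRL, CGA, GH, granins and cytoplasmic ribosomal proteins, stacked for each adult bird (x axis, photoperiod and replicate number). The left panel uses counts summed over transcripts and the right panel the most counted transcript with equal copies counted once, where the 4 hormones reach 15.2% in 16L replicate 3 and 3.70% in 8L replicate 2.

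CGA, the shared glycoprotein hormone subunit, was the hormone gene with the most summed counts. It stood at 21967, 23595, 20304, 22258 and 24580 CPM in 16L replicates 1 to 5 and at 7533, 7508, 4643, 9653 and 9135 CPM in 8L replicates 1 to 5. Every 16L bird lay above every 8L bird, and in CPM the 16L birds lay close together. Their shares of summed counts, without normalization factors, ran from 1.38% in 16L replicate 2 to 2.44% in 16L replicate 1. Of 8171 genes with a mean of at least 10 counts, 82 (1.00%) had no overlap between the photoperiods in either direction. CGA has 4 listed transcripts, of which the highest held 63596 adult counts and the lowest 31492, with a median of 63590. The gene summed to 222268. As a share of most counted transcripts CGA held 1.796% to 2.66% of counts in 16L birds and 0.581% to 1.26% in 8L birds, still without overlap.

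PRL has 1 listed transcript, so that both ways of counting start from the same number. It stood at 14687, 5673, 25823, 15482 and 18560 CPM in 16L replicates 1 to 5. In 8L replicates 1 to 5 it stood at 2785, 2228, 1173, 2835 and 6178 CPM. The groups overlapped in a single place, since 16L replicate 2 lay below 8L replicate 5. The highest bird had 22.02 times the level of the lowest, the widest range among the 4. As a share of the most counted transcripts PRL went from 0.506% in 8L replicate 3 to 8.20% in 16L replicate 3, where it was the most abundant of the 4 hormones.

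POMC had 9977, 7062, 9185, 5368 and 3450 CPM in 16L replicates 1 to 5. The 8L replicates had 8690, 1361, 3561, 6214 and 10770 CPM in the same order. Birds of both photoperiods were spread over the same range, with the shallow library 8L replicate 2 lowest and 8L replicate 5 highest. Both transcripts of POMC were counted, with 94453 and 10843 adult counts.

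GH, with 1 listed transcript, had 3022, 1965, 7564, 5216 and 1536 CPM in 16L replicates 1 to 5. In 8L replicates 1 to 5 GH had 1446, 1151, 4191, 1620 and 4352 CPM. Within each photoperiod a pair of birds stood well above the other three, replicates 3 and 4 under 16L and replicates 3 and 5 under 8L, and the photoperiods overlapped.

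The beta subunits were far lower than CGA. FSHB had 63.8, 29.1, 101, 67.4 and 253 CPM in 16L replicates 1 to 5 and 1.16, 28.3, 1.78, 26.1 and 6.56 CPM in 8L replicates 1 to 5. The lowest 16L bird and the highest 8L bird were separated by less than 1 count of 8L replicate 2. TSHB had 42.1, 111, 90.8, 63.2 and 45.2 CPM under 16L. Under 8L it had 156, 0, 87.0, 82.1 and 87.4 CPM, and the photoperiods overlapped. The 0 was in 8L replicate 2, where 0 counts allow a level of up to 17.01 CPM (3 counts). LHB, the beta subunit of luteinizing hormone, was not analysed here, since no symbol of the list matched it. CGA and FSHB were the 2 of the 6 hormone genes without overlap in CPM, beside 82 of 8171 genes (1.00%) with a mean of at least 10 counts. FSHB did overlap as a share of summed counts. That share was 0.00170% in 16L replicate 2, against 0.00389% and 0.00349% in 8L replicates 2 and 4.

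**Figure D3:**
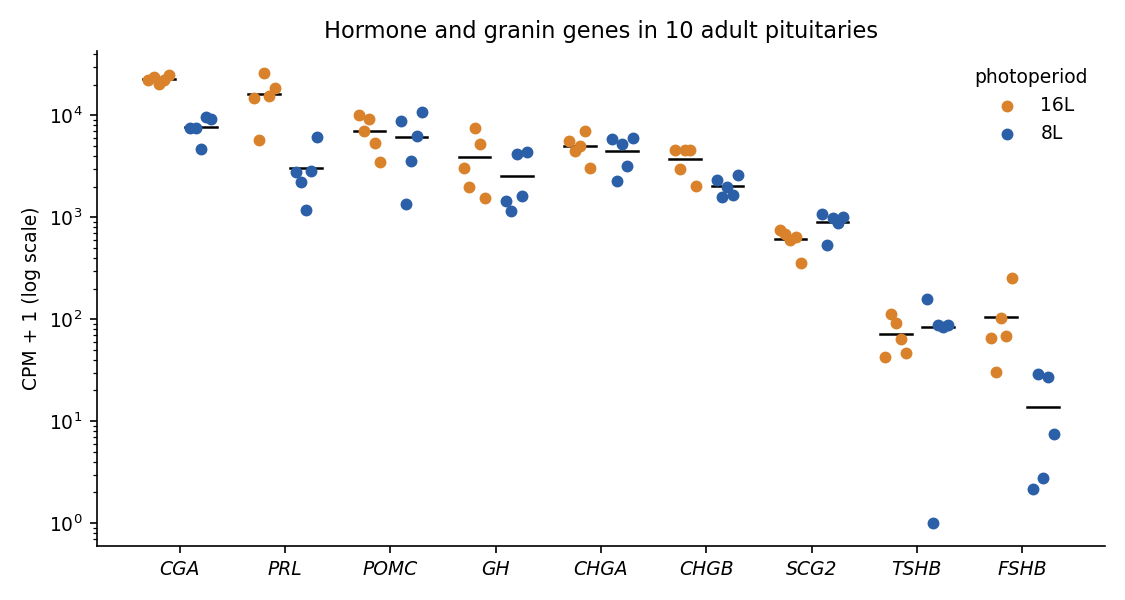
Level of 6 hormone genes and 3 granins in each adult bird (y axis, CPM plus 1 on a logarithmic scale), with 16L birds in orange, 8L birds in blue and a black line at the mean of each 5 birds. CGA spans 20304 to 24580 CPM under 16L and 4643 to 9653 under 8L, while POMC and GH overlap between photoperiods.

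The order of the 4 hormones depended on the bird and on how transcripts were counted. By summed counts CGA was highest in 7 libraries, POMC in 2 and PRL in 1, and GH was lowest in 9 libraries. On the most counted transcript PRL was highest in 5 libraries, POMC in 3, CGA in 1 and GH in 1, and 8 different orders occurred among the 10 birds. PRL led in 4 of the 5 birds under 16L. Under 8L, POMC led in replicates 1, 4 and 5, PRL in replicate 2 and GH in replicate 3. Most neighbours in these orders lay further apart than counting error alone. In 16L replicate 1, for example, POMC held 3.31% (95% exact Clopper-Pearson interval 3.25% to 3.37%) and CGA 2.49% (2.44% to 2.55%) of most counted transcripts. In 8L replicate 2 PRL at 1.23% (1.11% to 1.35%) and CGA at 1.21% (1.09% to 1.34%) were not distinguishable, nor were GH at 0.634% (0.550% to 0.727%) and POMC at 0.628% (0.544% to 0.720%). In 16L replicate 2 POMC at 1.93% (1.87% to 1.98%) and PRL at 1.90% (1.84% to 1.95%) likewise had overlapping intervals. In 8L replicate 4 so did PRL at 1.29% (1.24% to 1.34%) and CGA at 1.26% (1.21% to 1.31%). PCR copies of 1 molecule were counted as separate reads, so such intervals and limits cover only the error of counting.

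Granins were the next largest secretory group. The 5 members found held 0.5004% to 1.263% of summed counts (median 0.899%), with 0.903% ± 0.359 (SD, n = 5) in 16L birds and 0.880% ± 0.193 (SD, n = 5) in 8L birds. Their share by the most counted transcript was 1.39% to 2.99%. CHGA, chromogranin A, the core protein of dense granules, had 5635, 4423, 5041, 6948 and 3006 CPM in 16L replicates 1 to 5 and 5914, 2257, 5251, 3154 and 5961 CPM in 8L replicates 1 to 5. Its groups overlapped from 3006 to 5961 CPM. With 1 listed transcript, CHGA was 4th of the named genes by the most counted transcript, at a median of 1.89%. CHGB, chromogranin B, had a median of 2475 CPM (1565 to 4596), and SCG2, secretogranin II, 721 CPM (353 to 1065). These members leaned in opposite directions within the sum. CHGB held 0.343% ± 0.152 (SD, n = 5) of summed counts in 16L birds and 0.231% ± 0.037 (SD, n = 5) in 8L birds. SCG2 held 0.0542% ± 0.0200 (SD, n = 5) and 0.1007% ± 0.0176 (SD, n = 5). By the most counted transcript SCG2 ran from 0.0266% to 0.0585% under 16L and from 0.05935% to 0.08465% under 8L. SCG5, a chaperone of the convertase PCSK2, and SCG3, which binds chromogranin A, had medians of 259 and 207 CPM.

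The enzymes that process prohormones were counted at far lower levels. All 8 listed members were found, and together they held 0.0275% to 0.0620% of summed counts and 0.0484% to 0.0845% by the most counted transcript. PAM, which amidates peptides, had a median of 264 CPM (130 to 436) over 12 listed transcripts, and QPCT, which forms pyroglutamate at peptide ends, 60.6 CPM. CPE, the carboxypeptidase that trims cut peptides, had a median of 53.9 CPM (37.9 to 99.9). The convertases PCSK1 and PCSK2 had 11.4 and 7.22 CPM and FURIN 6.11 CPM. PCSK1, which in mammals makes the first cuts in POMC, had 15.02, 39.2, 21.1, 15.8 and 12.8 CPM in 16L replicates 1 to 5 and 5.79, 5.67, 8.88, 9.95 and 9.47 CPM in 8L replicates 1 to 5. In CPM its 16L birds all lay above its 8L birds, on 211 counts in all. Of these, 1 count gave the value of 8L replicate 2. Such a lack of overlap, in either direction, was found for 82 of 8171 genes (1.00%). As a share of the library total, without normalization factors, 16L replicate 5 (factor 0.938) lay below 8L replicate 4 (factor 1.34). The metallocarboxypeptidases CPZ and CPD had 15.5 and 9.71 CPM.

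The remaining secretory machinery was spread over many genes. Of 36 listed genes of entry into and folding in the endoplasmic reticulum 33 were found and counted, with 0.171% to 0.368% of summed counts. SEC61G, a subunit of the translocation channel, had a median of 507 CPM, and HSPA5, the main chaperone of this compartment, 325 CPM. HSPA5 ranged from 170 to 623 CPM over the birds. SSR2, a subunit of the translocon-associated complex, had 220 CPM. Golgi and vesicle transport (30 of 34 genes) held 0.0823% to 0.181%, with SEC31A, an outer coat protein of vesicles that leave the endoplasmic reticulum, at 318 CPM, and TMED2, a cargo receptor, at 174 CPM. Regulated exocytosis (19 of 23 genes) held 0.183% to 0.351% of summed counts. Most of that lay on genes with many listed transcripts, such as RIMS2, a scaffold of release sites with 50 transcripts (1062 CPM), and CADPS, a priming factor with 26 (700 CPM). This group held, by the most counted transcript, 0.0804% to 0.121%, Golgi and vesicle transport 0.162% to 0.270% and the folding genes 0.531% to 0.772%. The folding genes had the highest mean of these 3 groups in both ways of counting, while exocytosis was above Golgi transport by summed counts (means 0.243% and 0.133%) and below it by the most counted transcript (0.0987% and 0.217%).

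The list of the 30 most abundant named genes changed with the way of counting. By summed counts it held all 4 hormones, CHGA and CHGB, 3 ribosomal protein genes and 18 genes with at least 17 listed transcripts, and the median gene on it had 24.5 transcripts. The first 10 were CGA, FRMD8, PPFIBP1, POMC, ZBTB20, PRL, HNRNPA3, CHGA, MAP2 and FMO4. PPFIBP1, a liprin of cell adhesion sites, and MAP2, a microtubule protein of neurons, each have 50 listed transcripts. The 50 transcripts of PPFIBP1 carried between 1588 and 1894 adult counts each. Next came BIN1, a membrane-bending protein, TNRC6B, a partner of microRNAs, MSI2, an RNA-binding protein, DST, a cytoskeletal linker, and GH in 15th place. Further down the list were RPS24, MBNL3, CHGB, RPS15A, HNRNPH1, PFKP, RBFOX2, HMBOX1, RPS3A, EPB41L2, PSAP, FOXP1 and RALYL.

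By the most counted transcript, with copies counted once, 20 of the 30 were ribosomal protein genes and 16 had a single listed transcript. FRMD8, POMC, PRL, CHGA, CGA and GH came first, at medians of 2.43%, 2.29%, 2.15%, 1.89%, 1.53% and 0.954%. A drop followed, and RPL27 was 7th at 0.377%. The list went on with RPS27A, RPS3A, RPS6 and RPLP1, and the genes outside the ribosome on it were HSP90AA1, a cytosolic chaperone, GRIA3, a glutamate receptor subunit, EEF1A1, an elongation factor of translation, and CHGB. The lists shared 10 genes. The hormones and CHGA were in both. FRMD8, a protein that stabilises a shedding protease at the cell surface, stood 2nd and 1st, with 0.313% to 2.78% of summed counts and 0.895% to 4.73% by the most counted transcript. A pair of its 3 transcripts held 98373 and 98368 adult counts. No transcript lengths were used, so these orders are orders of counts.

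All 70 cytoplasmic ribosomal protein genes were found, and they held 3.61% ± 0.99 (SD, n = 10) of summed counts, from 1.45% in 16L replicate 2 to 4.77% in 8L replicate 5. They held 5.81% to 12.2% by the most counted transcript. Beside the 6 hormone genes their mean share of summed counts was lower in 16L birds (3.52% against 4.51%) and higher in 8L birds (3.71% against 2.23%). The most counted transcript gave 9.87% against 11.6% in 16L birds and 10.2% against 5.66% in 8L birds. The lowest value of each measure was in 16L replicate 2, the library with the highest share of equal copies. With the copies left out of the denominator the mean share was 5.09%. Without 16L replicate 2 the mean share of summed counts was 3.86%.

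Birds of 1 photoperiod differed more in POMC, GH and PRL than in most abundant genes. The SD between birds of log2 CPM, taken around the mean of each photoperiod with 8 degrees of freedom, was 0.95 for POMC, 0.93 for GH and 0.84 for PRL. Among the 200 named genes of highest median share the median SD was 0.46 (0.19 to 2.99), and POMC, GH and PRL ranked 4th, 5th and 10th. CGA, by contrast, had an SD of 0.30 and ranked 173rd. Its coefficient of variation of CPM was 7.25% in 16L birds and 25.4% in 8L birds, while that of GH was 65.1% and 61.9%. The low value of CGA under 16L depended on the normalization factors, since its share of summed counts was 2.01% ± 0.437 (SD, n = 5). Counting error on the most counted transcript gave a coefficient of variation of 2.11% to 2.86% for these 4 genes. By the most counted transcript the SDs were 0.99, 0.96, 0.84 and 0.27, and POMC, GH, PRL and CGA ranked 5th, 8th, 16th and 193rd of 200. Single libraries moved some of these values. Without 8L replicate 2 the SD of POMC was 0.66, and without 8L replicate 3 that of CGA was 0.15. Granins lay between, with SDs of 0.55 for CHGA, 0.43 for CHGB and 0.41 for SCG2.

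**Figure D4:**
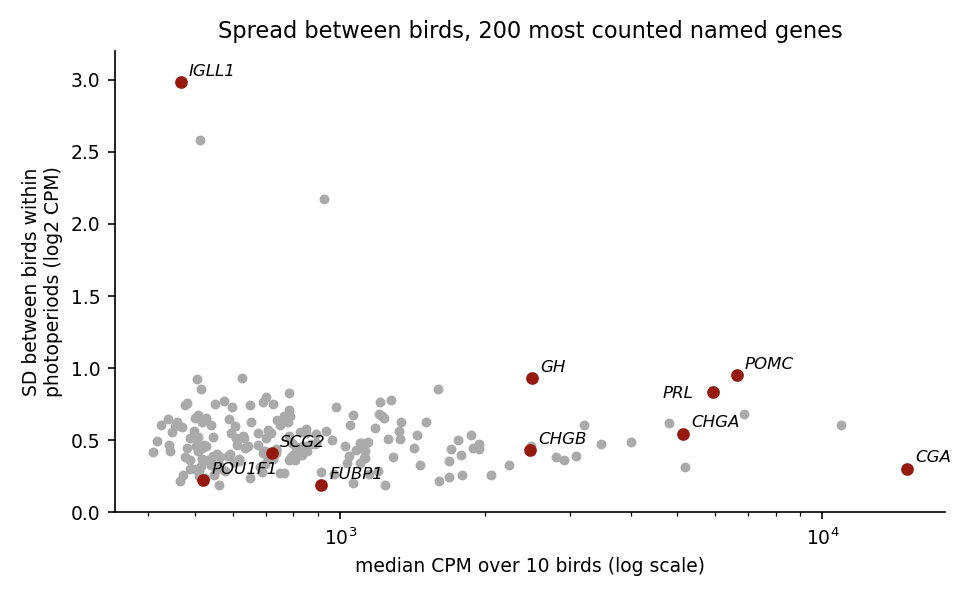
SD between birds within photoperiods (y axis, log2 CPM) against median level (x axis, CPM on a logarithmic scale) for the 200 named genes of highest median share of summed counts, with each point a gene and selected genes in red. POMC, GH and PRL lie between 0.84 and 0.95, above the median of 0.46, and CGA lies at 0.30.

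IGLL1, an immunoglobulin light chain gene with 51 listed transcripts, had the largest SD, 2.99. It had 976, 152, 949, 427 and 1191 CPM in 16L replicates 1 to 5 and 2179, 0, 95.9, 484 and 450 CPM in 8L replicates 1 to 5. TCF12, a transcription factor with an SD of 2.17, ranked 3rd and was lowest in 8L replicate 2. It stood there at 5.67 CPM, which is 1 count of that shallow library, against a median of 924 CPM. Its coefficient of variation was 21.9% in 16L birds and 61.0% in 8L birds, so its SD depends on a value near the floor. The next genes outside the hormones were HNRNPA2B1, ADGRL2, PSAP and RPL38, with SDs from 0.85 to 0.93. HNRNPA2B1 was also lowest in 8L replicate 2, at 96.4 CPM against a median of 627 CPM. The 10 genes with the smallest SDs ran from 0.19 to 0.25. They were FUBP1, HDAC4, TAX1BP1, CACNA2D1, PAIP2B, FOXP1, POU1F1, CLASP1, HERC2 and RALYL. For these genes 1 SD was 1.141-fold to 1.185-fold. Counting error on the most counted transcript gave coefficients of variation from 7.14% (POU1F1) to 31.3% (CLASP1). For CLASP1 this was more than its SD (1.181-fold) and for POU1F1 less (1.169-fold). It was not computed for the summed counts that the SDs come from, so the part of counting error in these SDs was not tested. POU1F1, the transcription factor that drives PRL and GH, had an SD of 0.23 (364 to 772 CPM), below those of both of its targets. Ribosomal protein genes among the 200 (27 genes) had a median SD of 0.47.

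Covariation between birds was measured over the 10 adults on log2 CPM with the mean of each photoperiod removed. The family held 16 relations, each with an exact two-sided permutation test over all pairings of birds within photoperiods. None of the 16 passed an adjusted p of 0.05 (Benjamini-Hochberg), and 3 had an unadjusted p under 0.05. POMC and GH had r = 0.43 (exact permutation p = 0.248, adjusted p = 0.566) and rho = 0.52 (exact permutation p = 0.137, adjusted p = 0.361). Without the 2 birds farthest from the median in POMC their r was -0.12. PRL and CGA had r = 0.50 (exact permutation p = 0.201, adjusted p = 0.536) and rho = 0.28 (exact permutation p = 0.441, adjusted p = 0.559), and r = 0.28 without the 2 birds farthest in PRL. POMC with PRL, POMC with CGA and PRL with GH had r = 0.38, 0.25 and 0.31, and 0.70, 0.63 and 0.72 without the 2 farthest birds. CGA and GH had r = -0.40 (exact permutation p = 0.291, adjusted p = 0.581) and rho = -0.42 (exact permutation p = 0.230, adjusted p = 0.460), with 2 of the 10 birds on the same side of both means. Their r was -0.06 without the 2 birds farthest in CGA. None of the hormone pairs is shown to move together or apart.

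Of the relations among hormones and summed granins, those of POMC and of GH with granins had the highest r. POMC and granins had r = 0.76 (exact permutation p = 0.0176, adjusted p = 0.179) and rho = 0.70 (exact permutation p = 0.0571, adjusted p = 0.361), with 6 of 10 birds on the same side of both means. Without 16L replicate 5 and 8L replicate 2, the birds farthest from the median in POMC, r was 0.24 over 8 birds. That removal also narrows the range of POMC, so it cannot tell whether the relation rested on those birds. Leaving out 1 bird at a time, r ran from 0.565 to 0.856. GH and granins had r = 0.73 (exact permutation p = 0.0276, adjusted p = 0.179) and rho = 0.65 (exact permutation p = 0.0594, adjusted p = 0.361), with 8 of 10 birds on the same side of both means, and r was 0.72 without the 2 birds farthest in GH. The sum of the 4 hormones and granins had r = 0.53, PRL and granins 0.21 and CGA and granins -0.23. POMC and the library total had r = 0.77 (exact permutation p = 0.0335, adjusted p = 0.179) and rho = 0.61 (exact permutation p = 0.0753, adjusted p = 0.361). That r was 0.41 without the 2 farthest birds and ran from 0.420 to 0.831 with 1 bird left out at a time. GH, PRL and CGA had r = 0.52, 0.29 and -0.17 with the library total, and the equal copies 0.27. From the most counted transcript of each gene POMC and granins had r = 0.73, GH and granins 0.72 and CGA and GH -0.43, and none of the 16 relations passed an adjusted p of 0.05. The part of depth in the relation of POMC and granins was not tested. The birds are listed in 2 sets in the table of the study, each with birds of both photoperiods. With the means of photoperiod and set removed, POMC and granins had r = 0.75, GH and granins 0.72 and CGA and GH -0.45, none past an adjusted p of 0.05.

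**Figure D5:**
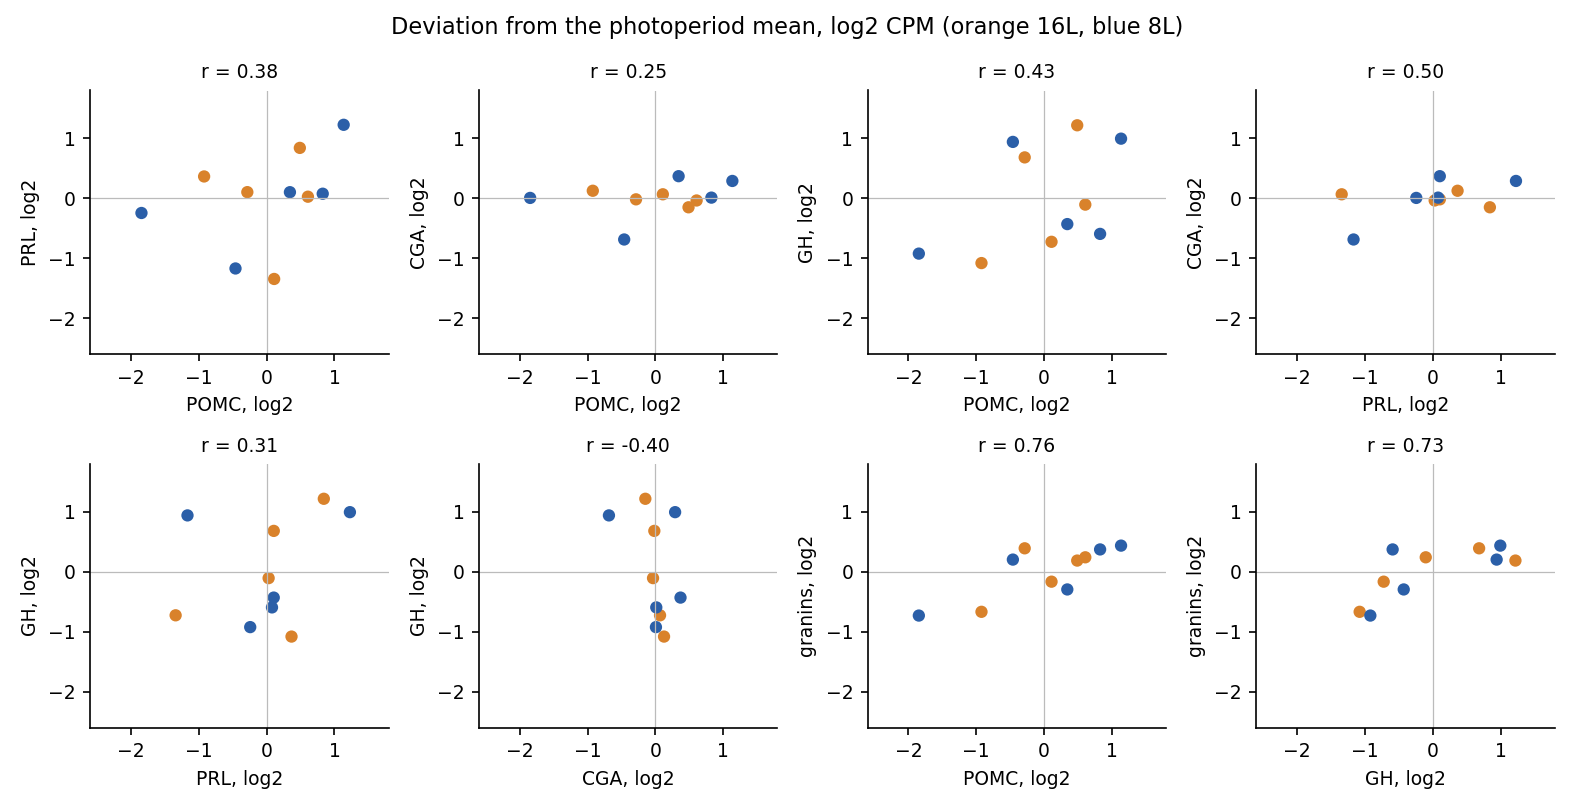
Deviations from the photoperiod mean in log2 CPM for 8 pairs of quantities, each point a bird, with 16L birds in orange and 8L birds in blue, and Pearson's r over 10 birds above each panel. POMC and GH each vary over more than 2 log2 units and CGA over much less, and the highest r are those of POMC (0.76) and GH (0.73) with the summed granins.

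The genes whose pattern over the 10 birds was most like each hormone were looked for among the 500 named genes of highest median share, as a description with no test. All points of such a correlation share their library and its depth. An r of at least 0.8 was reached by 10 of 499 genes (2.00%) for POMC, 2 (0.401%) for PRL, 0 (0%) for CGA and 4 (0.802%) for GH. GH was nearest to RTN1, a reticulon of the endoplasmic reticulum (r = 0.94, 397 to 1083 CPM), to GAPDH, a glycolytic enzyme (0.89), and then to SKP1, TAX1BP1 and RPS26 (0.84, 0.83 and 0.80). RTN1 and GAPDH were also nearest to GH by the most counted transcript, at r = 0.94 and 0.90. PRL was nearest to SSR2 (r = 0.90, 149 to 316 CPM), a gene of protein entry into the endoplasmic reticulum, then to RTF1, BUD31, RPS3 and CLU (0.86, 0.78, 0.76 and 0.75). SSR2 led for PRL by the most counted transcript too (0.90), with ATP6V0E1, a proton pump subunit, and PTGDS, a prostaglandin D synthase, after it (0.87 and 0.83).

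For POMC the nearest genes were TBL1X, PTPRS, RC3H1, ABI2 and THRAP3 (r from 0.84 to 0.87), all with 6 to 22 listed transcripts, and by the most counted transcript they included CANX, EPCAM, ATP5F1AZ and NDUFAB1 (0.85 to 0.92). ABI2 was lowest at 0 CPM and reached 413 CPM. POMC itself was lowest in the shallow library 8L replicate 2, and so was PTPRS, so these r depend in part on that library. How many of the 5 genes remained without that library is given among the alternatives below. For CGA they were CHL1, HERC1, RALYL, NBEA and C2CD5, of which CHL1 had the highest r, 0.66. The lowest r belonged to SUPT20H, DMXL2 and FHOD3 for POMC (-0.80 to -0.73), SRRM1, CACNA1D and MEIS2 for PRL (-0.85 to -0.83), THOC2, KTN1 and FOXP2 for CGA (-0.71 to -0.69) and LRRC4C, CACNA1B and ZMIZ1 for GH (-0.86 to -0.78). These lists depended on single birds. Without 8L replicate 3, 1 of the 5 genes nearest to POMC, 0 of those nearest to PRL, 1 for CGA and 3 for GH were still among the nearest 5.

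The lineage factors and receptors of the endocrine cell types were present at lower levels. Of 25 listed pituitary transcription factors 21 were counted, and 1, FOXL2, was found but stood at 0 in all 10 birds. EYA1, a transcriptional coactivator, POU1F1 and PITX1, which acts early in the gland, had medians of 526, 520 and 159 CPM. SIX3 had 109, GATA2, a factor of gonadotrophs and thyrotrophs, 97.3, LHX3 55.6 and NR5A1, a factor of gonadotrophs, 41.3 CPM. TBX19, the factor of corticotrophs, was counted 69 times in all, with 5.02 CPM. Of 24 listed receptors 17 were found, all of them counted. GHRHR, the receptor of growth hormone-releasing hormone, was highest with 117 CPM (37.1 to 338), followed by ADCYAP1R1, a receptor of the peptide PACAP (69.7), and the glucocorticoid receptor NR3C1 (45.6). VIPR1, a receptor for vasoactive intestinal peptide, the main releaser of prolactin in birds, had 29.8 CPM. AVPR1B, a vasotocin receptor, DRD2, a dopamine receptor, and CRHR1, the receptor of corticotropin-releasing hormone, had 6.43, 4.62 and 2.01 CPM, and TRHR, the receptor of thyrotropin-releasing hormone, 6.31 CPM.

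Markers of other cells of the gland were low. Of the 12 glial and folliculostellate markers 11 were counted, with 0.00700% to 0.0229% of summed counts, led by ALDOC (30.2 CPM), FABP7 (26.7 CPM) and VIM (21.01 CPM). Of the 10 markers of neurons and the posterior lobe 9 were counted, with 0.289% to 0.580% in sum, nearly all of it MAP2 with its 50 transcripts. By the most counted transcript that list held 0.0469% to 0.0869%. STMN2 had 69.4 CPM and RBFOX3 24.5 CPM, and AVP, also on that list, was counted 6 times in 3 libraries. All 11 endothelial markers were counted (0.00311% to 0.0114%), led by PECAM1 (27.4 CPM), EGFL7 (7.04 CPM) and KDR (5.84 CPM). Mural cell markers (6 of 7 counted) held 0% to 0.00330%, led by MYH11, RGS5 and PDGFRB, with the 0 in 8L replicate 2. Connective tissue markers (9 of 9) held 0.0145% to 0.0268%, led by COL3A1 (76.6 CPM), DCN (29.9 CPM) and FBLN1 (22.5 CPM).

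Blood and neighbouring tissues were checked in the same way. Red blood cell markers, of which 8 of 14 were counted, held 0.0405% to 0.255% of summed counts, led by the globins HBA1 (460 CPM, 274 to 902), HBBA (350 CPM) and HBAD (261 CPM). The highest share was in 8L replicate 2 and the lowest in 16L replicate 2. Leukocyte markers (13 of 14 counted) held 0% to 0.195%, most of it IGLL1, with CD74 at 11.9 and JCHAIN at 5.17 CPM. By the most counted transcript, with copies counted once, red blood cell markers held 0.184% to 1.02% and leukocyte markers 0% to 0.0439%. Bone and cartilage were nearly absent. Of 8 osteoblast markers 5 were counted, with RUNX2 (16.0 CPM), PHEX (4.69 CPM) and ALPL (1.201 CPM) first, and IBSP, SP7 and DMP1 at 0 in all 10 birds. Of 8 cartilage markers 5 were counted and COL2A1, MATN1 and COL9A1 stood at 0, with HAPLN1, the highest, at 2.06 CPM. Skeletal muscle markers (7 of 8 counted) held at most 8.32e-04%, led by TNNI2 (3.74 CPM), ACTA1 (0.240 CPM) and MYLPF, whose median was 0 CPM. The share of these lists in the spread of the hormones was not tested.

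The make-up of the adult gland was set beside that of the 9 juveniles, which were kept for 5 days under long days and 5 days in their photoperiod and taken at posthatch day 10 (4 under 16L and 5 under 8L). The hatched chicks of the study included females and the adults were all males, so that age, sex and light history cannot be told apart. The 6 hormone genes held 3.37% ± 1.60 (SD, n = 10) of summed counts in adults and 4.44% ± 3.23 (SD, n = 9) in juveniles. Juveniles ranged from 0.163% to 10.96% and enclosed all adults. The juvenile libraries held from 90599 to 1074139 summed counts. The difference of mean log2 shares, adults minus juveniles averaged over photoperiods, was 0.04 (exact two-sided permutation test of age within photoperiods over 31752 regroupings, p = 0.938, adjusted p = 0.938 over 4 shares). It was -0.53 under 16L and 0.62 under 8L, and the difference of these was not tested. Granins held 0.892% ± 0.272 in adults and 0.665% ± 0.363 in juveniles (log2 difference 0.72, exact permutation p = 0.173, adjusted p = 0.375). Their difference was -0.07 under 16L and 1.52 under 8L. By the most counted transcript it was 0.93 (exact permutation p = 0.0229, adjusted p = 0.0915), with 0.22 under 16L and 1.63 under 8L. The difference between photoperiods was not tested. Ribosomal proteins differed by 0.03 and equal copies by -0.37 on the log2 scale, with adjusted p of 0.938 and 0.375 in the exact permutation test. At 19 libraries no difference between ages was shown for any of the 4 shares, and their equality was not shown either. The hormone share is a sum of 6 genes, in which opposite differences of single genes can cancel. The study reports GH as higher in juveniles and FSHB as higher in adults. Single genes were not tested between ages here.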

How the data were processed

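RNA of each pituitary was made into PCR-amplified complementary DNA with a barcoding kit and read on an Oxford Nanopore instrument. By the methods of the study the stalk was cut so that the pars tuberalis stayed with the hypothalamus. Reads were base-called, trimmed and length-filtered, and, by the processing notes of the submitters, aligned with minimap2. The authors deposited estimated counts per transcript from Salmon, not normalized. Versions are not given in the sources used here. None of the 63260 transcript accessions was found in the quail annotation at hand (Coturnix japonica 2.1), while 11430 gene symbols were, so no positions are given.

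Counts were summed per gene symbol. CPM is the count divided by the effective library size, with TMM factors from all 19 libraries (edgeR 4.0.16, limma 3.58.1, R 4.3.3), and log2 CPM used a prior count of 2. Permutation tests, ranks and figures used Python 3.11.15, numpy 2.4.6, scipy 1.17.1, pandas 2.3.3 and matplotlib 3.10.9. The permutation test of covariation was checked on simulated counts, and that of age was not. Alternatives changed the denominator, factors, prior count, centring, depth, gene universe and the birds included. The most counted transcript of each gene is given beside sums. Its use with copies counted once was chosen after seeing the data. The members and gene lists were chosen with earlier results of these data known. The rule for named genes takes hormones, granins and processing enzymes, the 30 genes of highest median share, the 10 largest and 10 smallest SDs among 200, the 5 highest and 3 lowest r with each hormone among 500, and up to 3 members of each marker list with members at 0. Some genes that the rule takes are not reported here. Other genes named were picked after their values were seen. None of the 13 listed mitochondrial genes was found, so the comparison of ages has 4 shares. Replicates are separate birds by the labels. Adult library totals ran from 128509 to 4796665 and juvenile totals from 90599 to 1074139. No column of sample values was left out.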

Additional observations from a re-analysis of the deposited data

Results flagged for a closer look

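The values below stood far from the other 4 birds of their photoperiod by Dixon's test on groups of 5, among 48 groups looked at, of which chance flags about 5%. SCG5 had 432 CPM in 16L replicate 3 against 224 to 265 CPM in the other 16L birds. Ribosomal proteins held 1.45% of summed counts in 16L replicate 2 against 3.59% to 4.41% in the others. The total of 16L replicate 3 was 4796665 counts against 970137 to 1354856.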

How the results depend on the processing

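Without equal copies the 4 hormones held a mean of 4.81%, granins 1.26% and ribosomal proteins 5.09% of counts, and over named genes only 5.32%, 1.40% and 5.65%. The most counted transcript gave ribosomal proteins 5.03%, and with copies counted once the 3 groups held 8.59%, 2.20% and 10.0%. Of the 30 most abundant named genes 10 remained by the most counted transcript, with copies counted once or not. The count of relations past an adjusted p of 0.05 was 0 in all 16 relations as reported and in the alternatives run, except 1 (PRL and CGA, r = 0.89) when photoperiod means were not removed. Some of the relations, none of which had passed as reported, changed sign. POMC and CGA had r = -0.0711 with RLE factors and PRL and granins -0.0290. CGA and GH had 0.0345 with library totals alone, 0.186 without centring and 0.0594 when thinned. CGA and granins had 0.191, 0.298 and 0.195 in the same settings, and CGA and the library total 0.37 without centring. Leaving out 1 bird at a time, PRL and granins ran from -0.00712 to 0.383. Of the 5 genes nearest each hormone, 1 to 4 (POMC), 0 to 4 (PRL), 0 to 4 (CGA) and 2 to 4 (GH) remained without 1 bird. Library totals alone left 2 for POMC and 3 for GH, RLE factors 3 for POMC and 3 for CGA, TMM over the 10 adults 3 for CGA, and the most counted transcript 1 for CGA. Without libraries under 200000 counts 2 (POMC), 3 (PRL) and 2 (CGA) remained, and among all named genes with a mean of 10 counts 0, 1, 0 and 2 (GH). The log2 difference of ages in hormones was -0.15 without equal copies and -0.41 by the most counted transcript, and that in ribosomal proteins -0.16 without equal copies. Leaving out 1 bird, they ran from -0.343 to 0.285 and from -0.0304 to 0.182. The causes were not tested. The alternative by coding length was not run, since the lengths in the table are those of genes. Thinning gave no value for relations with the library total. No paired analysis was possible because no test between the photoperiods was made and the replicate numbers mark no shared birds.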
